A study of Mus musculus with 47 samples.

Results

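Interferon-stimulated genes are the genes that cells switch on after an interferon binds its receptor. A set of 39 such genes was followed across 47 leukaemic mouse spleens, each hybridised to its own Affymetrix expression array. Members were the listed genes that the platform annotation names, and each was read from its brightest probe set naming that gene alone. In all, 37 of the 39 genes had such a probe set, out of 18178 genes tested, and all 37 passed the filter on dim genes. Isg15 was named only together with Gm9706 on its probe set, and Ifi44 was not analysed here.

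All mice carried Tg(ACTB-cre)2Mrt, a Cre recombinase driven by the beta-actin promoter and so active throughout the body. They also carried Gt(ROSA)26Sortm2(sb11)Njen, which supplies Sleeping Beauty transposase, and 1 of 2 lines of the mutagenic T2/Onc2 transposon, TgTn(sb-T2/Onc2)6070Njen (26 mice) or TgTn(sb-T2/Onc2)6113Njen (21 mice). The tissue was spleen tumour from terminal disease with the diagnosis of undifferentiated myeloid leukaemia. By label, 26 tumours had a transposon insertion in Erg, an ETS-family transcription factor gene, and 21 had none. Line 6070 held 17 and 9 of these, and line 6113 held 9 and 12. Sex labels were female for 25 mice and male for 22, and age labels ran from 32 to 97 with a median of 68 in a unit the labels do not give. No spleen without leukaemia was among the arrays, so the levels have no healthy reference.

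Interferons alpha and beta (type I) signal through Ifnar1 and Ifnar2 to the kinases Jak1 and Tyk2, and a complex with Stat2 and Irf9 then binds the interferon-stimulated response element (ISRE) of target genes. Interferon gamma (type II) signals through Ifngr1 and Ifngr2 to Jak1 and Jak2, and its targets carry gamma-activated sites (GAS). The targets include antiviral enzymes, sensors of viral RNA, the ISG15 protein-tagging system, guanylate-binding proteins and the parts of the proteasome and peptide transporter that load MHC class I. In blood-forming tissue, interferon is known to act on stem cells, megakaryocytes and macrophages.

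The values are log2 intensities that the authors normalised, with a floor near 5, as array medians lay between 5.19 and 5.24. A difference of 1 is a doubling of signal, and differences close to the floor are compressed. Erythroid transcripts were bright in most spleens, with a median of 9.14 for Klf1, the erythroid master factor, and of 10.31 for Car1. The macrophage receptor Csf1r had a median of 8.10 and lysozyme Lyz2 of 8.36, whereas the granule genes Mpo and Elane had medians of 5.62 and 5.43 and Elane never passed 5.92. Xist, read as female above log2 7 and as male otherwise, matched the sex label on 23 arrays and not on 24. No Y-chromosome gene entered this match. Arrays are therefore named here by their labels, and each comparison of labels stands for the labels as deposited. The 3′ minus 5′ signal of control probe sets, a measure of RNA integrity, ran from 0.652 to 2.96.

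The promoters of the members were searched for both elements in RefSeq windows of GRCm38.p6. The windows reach from 250 bases before to 50 after each start. Windows were given for 28 of the 37 members. The ISRE letters GAAANNGAAA, on either strand, were found in 13 of these 28 genes (46.4%), against 3.63% of the 14441 tested genes with a window. The GAS letters TTCNNNGAA, which read the same on both strands, were found in 7 members (25.0%) and in 8.57% of tested genes. They lay in 6 of 16 type I effectors and in 1 of 6 type II and antigen-processing genes. ISRE matches lay in 8 of 16 type I effectors, 2 of 4 sensors and signalling genes, 3 of 6 type II and antigen-processing genes and 0 of 2 genes of the ISG15 list. The members with neither set of letters in the window searched were Irf7, Irf9, Cmpk2, Xaf1, Samd9l, Oasl1, Oasl2, Herc6, Dtx3l, Tap1 and Psmb9. A match is a description of sequence, not a measured binding site. The members were listed as interferon-stimulated genes, so these shares do not bear on why their levels varied in these spleens. The stretches below come from genes named in the results that had a match, and genes without a match are not shown. They are printed 5′ to 3′ on the gene's strand, with the matching letters in capitals. Ifit1 and Ifit3 have 2 ISRE matches each on the reverse strand, Rsad2 and Gbp2 have 1, Oas1a has an overlapping pair on the forward strand, and Psmb8 has a GAS match. They cover chr19:34640755-34640843 (plus strand) for Ifit1, chr19:34583343-34583446 (plus) for Ifit3, chr12:26456533-26456602 (minus) for Rsad2, chr5:120907526-120907575 (minus) for Oas1a, chr3:142620574-142620643 (plus) for Gbp2 and chr17:34198068-34198136 (plus) for Psmb8.
Ifit1: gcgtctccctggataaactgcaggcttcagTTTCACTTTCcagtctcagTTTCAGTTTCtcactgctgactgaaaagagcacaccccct
Ifit3: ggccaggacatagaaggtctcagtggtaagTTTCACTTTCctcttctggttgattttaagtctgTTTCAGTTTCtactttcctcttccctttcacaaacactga
Rsad2: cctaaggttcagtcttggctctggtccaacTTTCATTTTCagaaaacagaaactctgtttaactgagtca
Oas1a: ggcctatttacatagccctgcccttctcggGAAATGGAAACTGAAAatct
Gbp2: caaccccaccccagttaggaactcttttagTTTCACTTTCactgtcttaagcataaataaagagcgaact
Psmb8: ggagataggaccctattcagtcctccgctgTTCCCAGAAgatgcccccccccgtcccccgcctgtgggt

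Interferon-stimulated genes were among the most variable genes of these spleens. The standard deviation over the 47 arrays had a median of 0.596 for the 37 members and of 0.104 for all tested genes. In all, 29 members lay above the 90th percentile of standard deviation, and the median member was at percentile 96.9. The filter on dim genes removed only 15 of 18193 genes, and array medians lay near the floor, where differences are compressed. Members were not compared with genes of like level. Of the members, 1 was above 7 in all 47 arrays and 4 were above 7 in none.

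The 20 type I effectors covered the whole scale. Ifit1, which binds foreign RNA that lacks the host cap, ran from 5.20 through a median of 6.21 to 9.43, an 18.8-fold span of signal that is compressed by the floor at its lower end. It was above 7 in 15 arrays and near the floor in many others. Its relatives Ifit2 and Ifit3 reached 7.57 and 7.56. Rsad2, which encodes viperin, an enzyme that makes a chain-ending nucleotide, spanned 22.4-fold, from 6.42 through 9.22 to 10.91, and 45 arrays were above 7. Cmpk2, the mitochondrial nucleotide kinase encoded next to Rsad2, ran from 5.68 through 6.48 to 8.26. Isg20, an exonuclease, was bright in nearly all spleens, at 6.48, 8.18 and 10.03 for its lowest, median and highest array. Ifi35 was the member above 7 in every array, from 7.39 through 8.43 to 9.67.

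Among the oligoadenylate synthetases, which make the messenger that activates RNase L, Oas1a ran from 6.00 through 7.32 to 9.11. Signals of different probe sets cannot be compared as amounts of RNA, since probe affinity differs. Oas2 ran from 5.56 to 7.66, whereas Oas3 stayed at or below 6.21. The related genes Oasl1 and Oasl2 reached 7.82 and 7.81. The GTPases Mx1 and Mx2 stayed between 5.09 and 5.74 and between 5.17 and 5.57, and with Stat2 they are the 3 members that did not reach 6 on any array. Rtp4, a chaperone that also restrains flaviviruses, spanned 11.7-fold, from 5.63 through 7.35 to 9.18. Xaf1, a pro-apoptotic protein, ran from 5.37 through 6.33 to 8.27, and Bst2, the virion tether, from 5.79 through 6.50 to 8.29.

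Among sensors and signalling genes, Ifih1, which encodes the double-stranded RNA sensor MDA5, ran from 5.83 through 6.87 to 9.81. Its highest value came from the array Female 25, and the next array stood at 8.43. Female 25 was unremarkable in the other members, with 20 of 37 above their own median, and its Ifit1 was not among the highest. Irf7, the factor that amplifies type I interferon production, ran from 5.70 through 6.27 to 7.99 and passed 7 on 9 arrays. Dhx58 reached 7.42, Irf9 reached 7.53 and Zbp1, a sensor of Z-form nucleic acid, had a median of 5.69 and a single array above 7, Female 23 at 7.35. Of the ISG15 list, Usp18, the protease that removes ISG15 and damps receptor signalling, spanned 13.5-fold, from 5.24 through 6.27 to 9.00. Parp9 and its partner Dtx3l, which act together on ubiquitin, reached 8.17 and 7.34.

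Type II and antigen-processing genes had another order of arrays. Psmb8, an immunoproteasome subunit, ran from 5.59 through 6.80 to 9.31, and Psmb9, its neighbour in the MHC region of chromosome 17, from 5.81 through 6.71 to 8.60. Gbp2, a guanylate-binding protein of cell-autonomous defence, ran from 5.26 through 5.97 to 8.91, and only 4 arrays were above 7. All 3 genes, and also Tap1, a subunit of the peptide transporter, and Cxcl10, a chemokine, were highest in Female 23. Gbp3 was highest in Male 16, at 7.96.

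**Figure D1:**
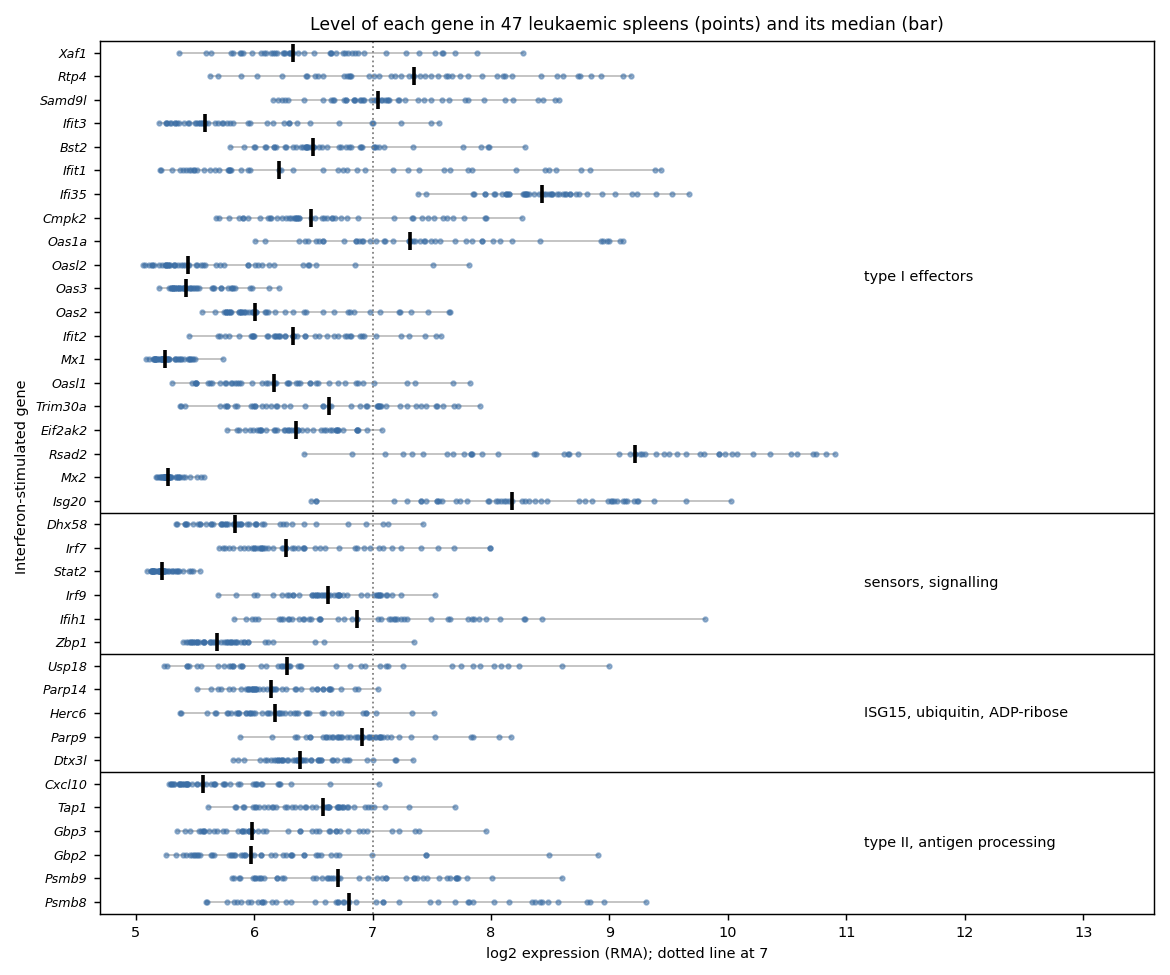
Log2 signal of the 37 interferon-stimulated genes, one row per gene in the 4 groups by role; each point is 1 of the 47 arrays and the bar marks the median. Mx1, Mx2 and Stat2 sit at the floor, Ifi35 is above 7 in every array, and Rsad2 and Ifit1 spread over more than 4 log2 units.

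Members rose and fell together across spleens. Over the 666 pairs of members the median Pearson correlation across the 47 arrays was 0.64 and 91.9% were positive, whereas the median over all pairs of tested genes was 0.0087. The arrays share their normalisation and the members share RNA from the same mixed tissue, so these correlations are a description and carry no p-value. In bulk tissue, fewer cells of a type and less RNA per cell cannot be told apart. The closest pairs were Dhx58 with Irf7 (0.94), Xaf1 with Usp18 (0.94), Xaf1 with Rtp4 (0.94) and Oas3 with Oas2 (0.94). Other lists of genes gave medians of 0.89 for neutrophil markers, 0.87 for T-cell markers and 0.73 for erythroid markers. Lower medians were those of proliferation genes (0.52), MHC class II and dendritic-cell markers (0.39) and macrophage markers (0.25). Coherence is thus not particular to the interferon set, although some of these lists were less coherent.

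Correlations within the set differed by role. Among the 31 members outside the type II and antigen-processing list the median correlation was 0.71, and among the 6 genes of that list it was 0.77. Between the lists it was 0.18, from -0.56 for Psmb8 with Isg20 to 0.77 for Cxcl10 with Parp14. Psmb8 with Oasl1 stood at -0.52 and Psmb8 with Ifih1 at -0.48. Xaf1 and Usp18 followed the mean of the other members most closely (r = 0.95 for each), ahead of Rtp4 (0.93), Dhx58 (0.92) and Irf7 (0.91), and 25 members were above 0.7. At the other end were Psmb8 (-0.05), Psmb9 (0.18), Gbp2 (0.33) and Gbp3 (0.39). Cxcl10, of the same list, stood at 0.65 and so went with the other members as well. A first principal component of the members held 60.8% of their standardised variance, with 36 of 37 weights positive, and a second held 17.9%. The largest positive weights on the second were those of Psmb9, Psmb8, Gbp2, Gbp3 and Tap1, and the most negative was that of Isg20. The mean of the type I effectors and the mean of the type II and antigen-processing genes correlated weakly over the 47 arrays (r = 0.17, rho = 0.20).

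**Figure D2:**
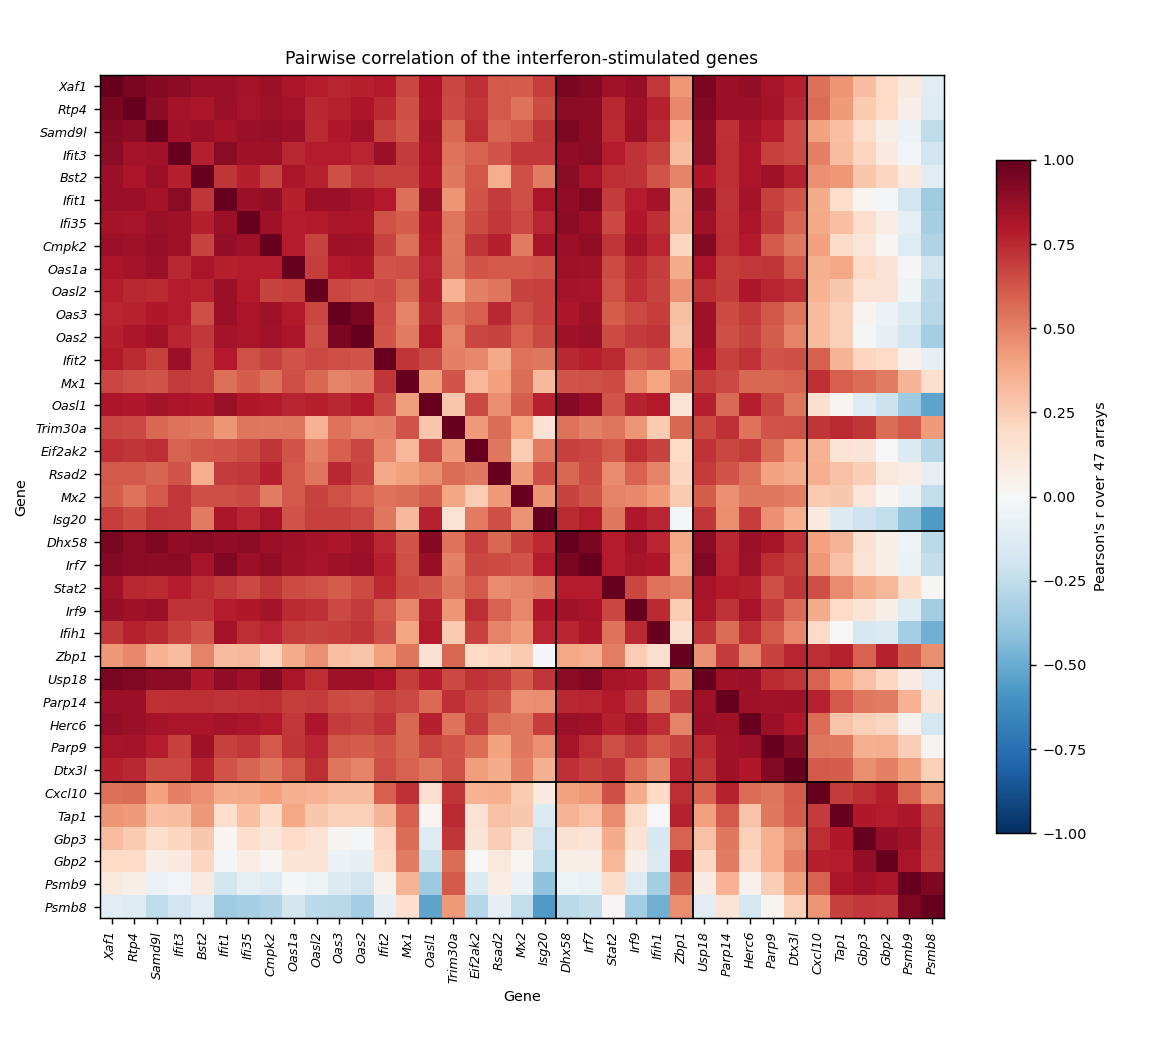
Pearson correlations over 47 arrays between the 37 members, grouped by role, on a colour scale from -1 to 1. The block of type II and antigen-processing genes is positive within itself (median 0.77) and weaker, and in part negative, against the other members (median 0.18).

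Few spleens carried the high end of the set. Each gene was standardised over the arrays and the member mean was taken per array. It ran from -1.13 to 1.82 and was above 1 in 5 arrays. Female 14 stood first at 1.82, followed by Female 18 at 1.71, Male 7 at 1.42, Female 21 at 1.41 and Female 16 at 1.28. By label, 4 of these 5 had an Erg insertion, Female 14 being the exception, and 3 came from line 6070. Female 18 held the highest value of 12 members, Female 14 of 8 and Female 16 of 4. In Male 7 all 37 members were above their own median although none was at its highest. Ifit1 stood at 9.43 in Female 14 and 9.38 in Female 18, and Usp18 at 9.00 and 8.15. The lowest means were those of Male 8 (-1.13), Male 10 (-1.01), Male 18 (-0.97), Female 22 (-0.94) and Male 22 (-0.88). Male 10 also had the largest 3′ minus 5′ difference of the control probe sets, 2.96, and the part of RNA integrity in its low mean was not tested.

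Female 23 and Male 16 stood high in the type II list rather than in the type I effectors. In Female 23 the mean standardised value was 2.70 over the 6 type II and antigen-processing genes and 0.10 over the 20 type I effectors. It held the highest value of 7 members, Psmb8 (9.31), Psmb9 (8.60), Gbp2 (8.91), Tap1 (7.70), Cxcl10 (7.05), Zbp1 (7.35) and Parp14 (7.05), while its Ifit1 was 6.79. The interferon gamma gene Ifng was 6.65 on this array and no higher than 5.22 on any other. T-cell transcripts were also high on it, with Cd3d at 10.02 and Cd3g at 9.09, as was the cytotoxic granzyme gene Gzma at 10.10. Female 7 and Male 22 had as much Cd3d (10.23 and 10.09), with Ifng at 5.09 and 4.97 and type II means of 0.54 and 0.32. In Male 16 the type II mean was 2.27 and the type I mean -0.15. Its Gbp2 was 8.49 and its Gbp3 7.96, with Cd3d near the floor at 5.28, Ifng at 5.10 and the lowest Klf1 of all arrays at 5.62. These arrays were picked out after their values were seen, and no test is attached to them.

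**Figure D3:**
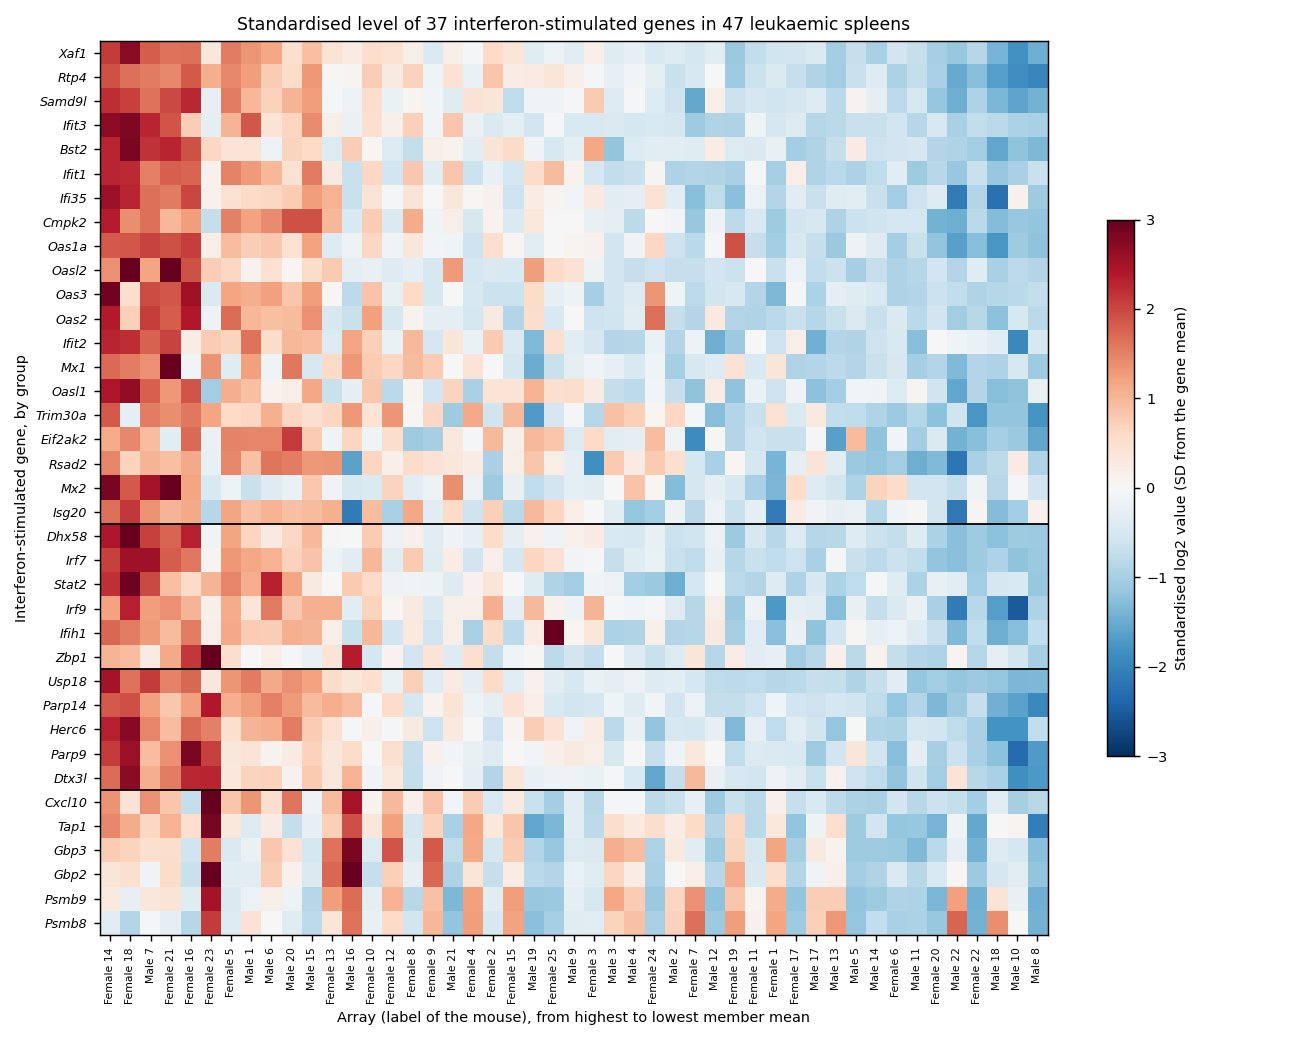
Standardised log2 signal of the 37 members (rows, grouped by role) in the 47 arrays (columns), ordered from the highest to the lowest member mean. Female 14, Female 18, Male 7, Female 21 and Female 16 are high in most type I rows, and Female 23 and Male 16 are high in the type II rows.

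Members were then related to lineage markers, to ask with which cell types of these mixed spleens they varied. A total of 11 markers were fitted singly against all genes with limma, and the slope gives the change in log2 signal per log2 unit of the marker. P-values were adjusted by Benjamini-Hochberg over the 18177 genes other than the marker, at a threshold of 0.05. The 11 fits share the same arrays, and the markers vary with each other.

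Most type I members rose with Pf4, the platelet factor made by megakaryocytes. In the fit on Pf4, 24 of 37 members passed with a positive slope and 0 with a negative one, where 2.69% of all genes passed with a positive and 1.16% with a negative slope. By role these were 18 of 20 type I effectors, 4 of 6 sensors and signalling genes, 2 of 5 genes of the ISG15 list and 0 of 6 type II and antigen-processing genes. The median slope was 0.22 over the members and -0.0019 over all genes, and 36 of 37 member slopes were above 0. Pf4 itself ran from 6.25 through 9.27 to 11.23. It was above its median in each of the 5 arrays with the highest member mean, at 10.53, 11.23, 10.29, 10.92 and 9.54.

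The smallest adjusted p belonged to Ifit3, which rose by 0.33 per unit of Pf4 (SE 0.0565, adjusted p = 0.00028, r = 0.65). Usp18 rose by 0.50 (SE 0.0924, adjusted p = 0.000553) and Cmpk2 by 0.34 (SE 0.0647, adjusted p = 0.000753). Ifit1 had the steepest slope, 0.61 (SE 0.121, adjusted p = 0.00126), which is 1.53-fold per doubling of Pf4. Irf7 rose by 0.30 (SE 0.0589, adjusted p = 0.00133), Rsad2 by 0.50 and Oas1a by 0.36. The slopes of Mx1, Mx2 and Stat2 also passed but were small, at 0.06, 0.03 and 0.04, for genes that stay near the floor. Trim30a (adjusted p = 0.0853) and Ifih1 (0.0975) missed the threshold with slopes of 0.23 and 0.26. Psmb8 had a slope of -0.09 (SE 0.128), Gbp2 of 0.04 and Psmb9 of 0.0094, none of which passed.

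The count with Pf4 depended on which arrays and which megakaryocyte gene were used. Without Female 18 it fell to 15. Within line 6070 alone 7 members passed, all positive, where 160 of 18177 genes passed with a positive slope. Within the 21 arrays of line 6113 0 passed with limma, where 22 members had an unadjusted p under 0.05, 12 of all genes passed with a positive slope, and the median member slope was 0.22. With the 11 markers in 1 model, 20 members passed for Pf4, 18 of them shared with the single fit. All 20 were positive, where 797 of 18167 genes passed with a positive slope. Of the other megakaryocyte markers, the integrin gene Itga2b gave 19 positive and 1 negative call, 18 of the 20 shared with Pf4. Of 18176 genes, 1415 passed with a positive and 922 with a negative slope for Itga2b. Ppbp gave 8 calls and Gp1bb 5, all positive, with 1 shared in each case. Of all genes, 2237 passed with a positive and 3423 with a negative slope for Ppbp, and 1461 and 1597 for Gp1bb. Correlations of these markers with the member mean were 0.57 for Pf4, 0.40 for Itga2b, 0.30 for Gp1bb and 0.18 for Ppbp. The members thus followed some transcripts of this lineage more than others. Whether the members' RNA came from megakaryocytic cells was not tested.

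**Figure D4:**
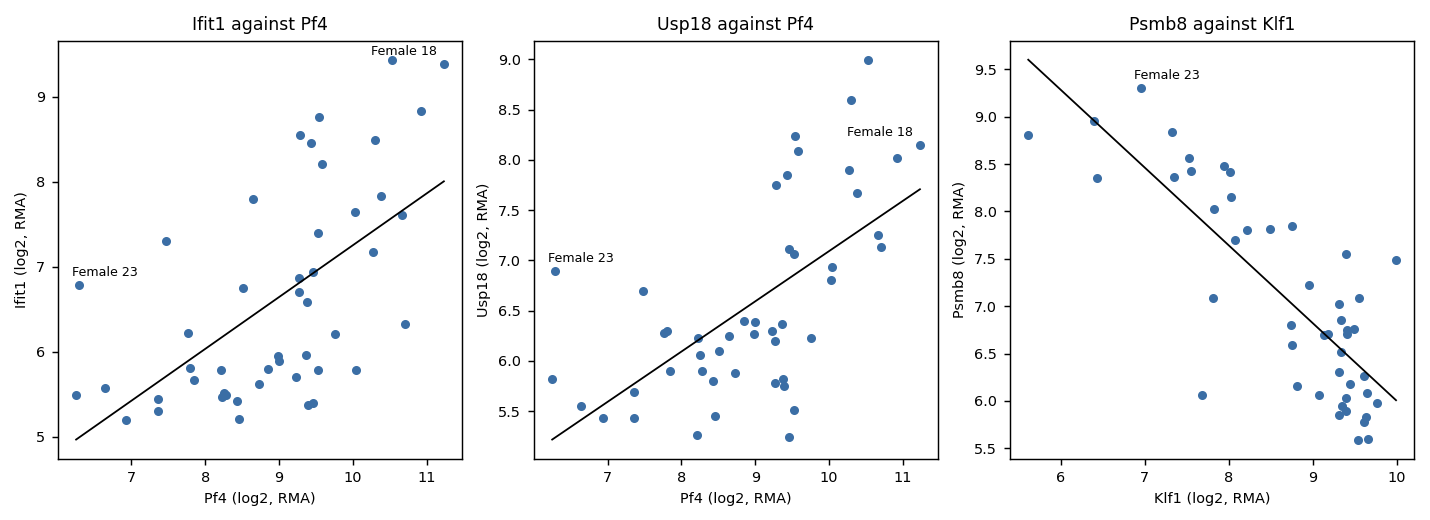
Log2 signal of Ifit1 and Usp18 against Pf4 and of Psmb8 against Klf1, one point per array (n = 47), with the fitted line and the arrays Female 18 and Female 23 named. Ifit1 and Usp18 rose with Pf4 (slopes 0.61 and 0.50) and Psmb8 fell with Klf1 (slope -0.82).

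With the erythroid factor Klf1, the type I effectors called were positive and the type II genes called negative. In this fit 11 members passed with a positive and 6 with a negative slope, against 18.9% and 14.8% of all genes, so the negative share was close to that of all genes. The positive calls were 8 type I effectors and 3 sensors or signalling genes. Isg20 rose by 0.63 per unit of Klf1 (SE 0.0726, adjusted p = 2.15e-09), Ifih1 by 0.42 (SE 0.0979, adjusted p = 0.000579) and Irf9 by 0.18 (SE 0.0464, adjusted p = 0.0014). The negative calls were 5 of the 6 type II and antigen-processing genes and Zbp1. Psmb8 fell by 0.82 (SE 0.0892, adjusted p = 5.09e-10), Psmb9 by 0.49 (SE 0.0687, adjusted p = 1.63e-07) and Tap1 by 0.24 (SE 0.0482, adjusted p = 7.8e-05). Cxcl10 had a slope of -0.11 (adjusted p = 0.114). With all 11 markers in 1 model, 1 member stayed past the threshold for Klf1, Isg20 at 0.78 (adjusted p = 0.00037), and Psmb8 stood at -0.12 (adjusted p = 0.684). In that model 138 of 18167 genes passed with a positive and 57 with a negative slope for Klf1.

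With Csf1r and H2-Aa, the members called positive were all of the type II list and those called negative all of the other lists. With the macrophage receptor gene Csf1r, 5 members passed with a positive and 13 with a negative slope, where 14.7% and 21.1% of all genes did. With the MHC class II gene H2-Aa the counts were 5 and 7, against 11.7% and 16.1%. The counts with H2-Aa and the positive count with Csf1r were close to the share of all genes, so they say little of the set as a whole. Csf1r does not stand for all macrophage markers, and no second macrophage marker was fitted. With the member mean Csf1r correlated at -0.16, Adgre1 at -0.12, Lyz2 at -0.07, Cd68 at 0.05, Ctss at 0.19 and Fcgr1 at 0.74. Fcgr1 stayed between 5.15 and 5.95, near the floor. The 5 positive genes were Psmb8, Psmb9, Tap1, Gbp2 and Gbp3 in both fits. Psmb8 rose by 0.84 per unit of Csf1r (SE 0.104, adjusted p = 1.22e-08) and by 0.94 per unit of H2-Aa (SE 0.120, adjusted p = 1.79e-07). Psmb9 rose by 0.54 (SE 0.0714, adjusted p = 4.25e-08) and 0.60 (SE 0.0849, adjusted p = 1.22e-06). Among the negative genes, Oasl1 fell by 0.37 with Csf1r (SE 0.0720, adjusted p = 3.97e-05) and by 0.41 with H2-Aa (SE 0.0839, adjusted p = 0.000214). Isg20 fell by 0.48 and 0.43 and Ifih1 by 0.44 and 0.43. Ifit1 fell by 0.59 and 0.61. In the model of all markers 0 members passed for either marker. Of 18167 genes, 227 passed with a positive and 15 with a negative slope for Csf1r, and 4 and 0 for H2-Aa.

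The remaining markers called few members. Counts with Cd3d and Mki67, and the positive counts with S100a8 and Cd79b, were near the share of all genes. They say little of the set as a whole. The negative counts with S100a8 and Cd79b were below the share of all genes. With S100a8, a neutrophil calprotectin gene, 5 members passed, all positive, against 9.5% of genes with a positive and 17.6% with a negative slope. They were the same 5 genes, Gbp3 rising by 0.16 (SE 0.0388, adjusted p = 0.00148) and Psmb8 by 0.26 (SE 0.0689, adjusted p = 0.00419). With the B-cell gene Cd79b, 6 passed with a positive and 4 with a negative slope, against 12.2% and 19.4%, and Gbp3 rose by 0.35 (SE 0.0494, adjusted p = 3.03e-07). Trim30a was the one type I effector that rose with Cd79b, by 0.25 (SE 0.0725, adjusted p = 0.0051). With the T-cell gene Cd3d, 2 members passed in each direction, against 6.91% and 5.01%, with Psmb8 at 0.49 (SE 0.0835, adjusted p = 2.66e-05) and Psmb9 at 0.25 among the positive. With the proliferation gene Mki67, 2 passed in each direction, against 5.76% and 5.2%. Isg20 rose by 1.13 (SE 0.305, adjusted p = 0.0114) and Rsad2 by 1.40 (SE 0.452, adjusted p = 0.0375), and Psmb8 fell by 1.57 (SE 0.378, adjusted p = 0.00468). No member passed with the plasmacytoid dendritic cell gene Siglech (4 members at an unadjusted p under 0.05), with the cytotoxic gene Nkg7 (0) or with the progenitor receptor gene Kit (0), where 2.29%, 0.787% and 0.044% of all genes passed. With all 11 markers in 1 model, 0 members passed for S100a8 and Mki67 and 1 each for Cd79b and Cd3d. Of 18167 genes, 31 passed with a positive and 6 with a negative slope for S100a8, and 42 and 12 for Mki67. These counts were 519 and 413 for Cd79b and 239 and 39 for Cd3d. Siglech never rose above 5.61 in these arrays, so it could show little.

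**Figure D5:**
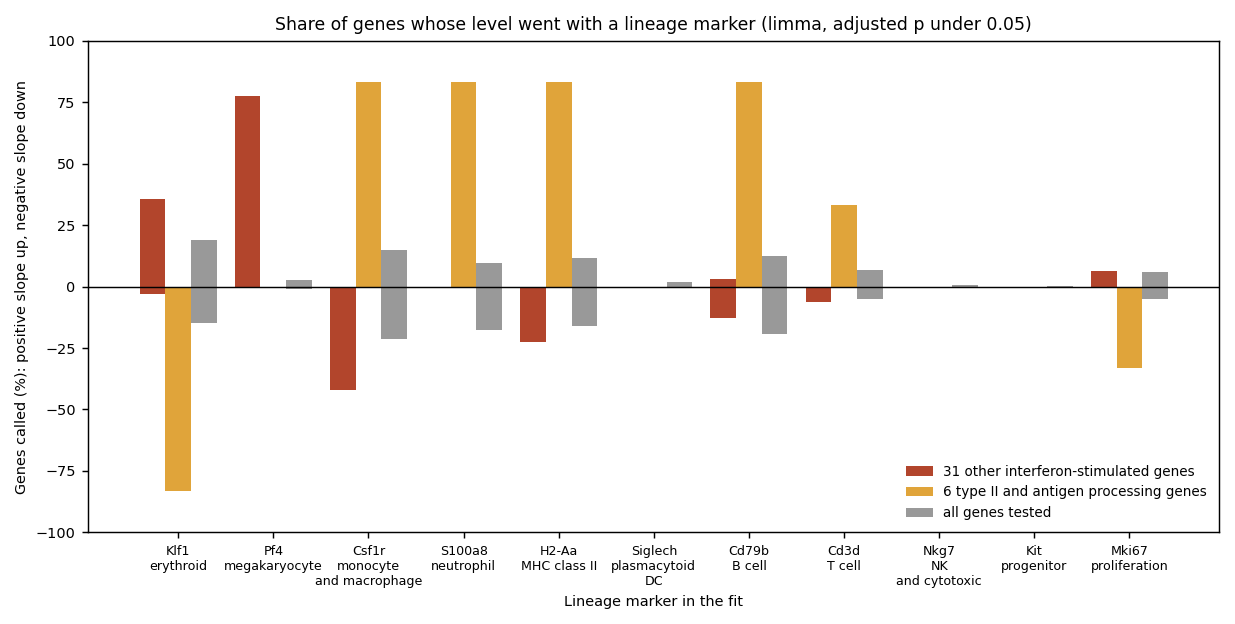
Percentage of genes past the threshold for each of the 11 lineage markers, drawn upwards for positive and downwards for negative slopes, for the 6 type II and antigen-processing genes, the 31 other members and all tested genes. The other members stand out with Pf4 (24 positive, where 2.69% of all genes were). Of the 6 type II genes, 5 rose with Csf1r, S100a8, H2-Aa and Cd79b, where 14.7%, 9.5%, 11.7% and 12.2% of all genes did. With Klf1 5 of the 6 fell, where 14.8% of all genes did.

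Other genes of the pathway were read from a list of 42 tested genes. The ligands stayed near the floor: Ifnb1 never passed 5.24, Ifna2 5.27 and Ifna4 5.51, and Ifng passed 5.22 only in Female 23. The type I receptor chains were measured at medians of 5.67 for Ifnar1 and 6.37 for Ifnar2, and the interferon gamma receptor chain Ifngr1 at 6.70. The kinases Jak1 and Jak2 had medians of 7.76 and 7.13. With Pf4, 2 of these 42 genes passed, both positive, where 2.69% of all genes did: Ddx58, which encodes the RNA sensor RIG-I, at 0.18 (adjusted p = 0.000479), and the MHC class I gene H2-K1 at 0.24 (adjusted p = 0.0381). With Klf1, 5 passed with a positive and 16 with a negative slope, where 18.9% and 14.8% of all genes did. All 5 interferon regulatory factor genes called (Irf1, Irf2, Irf4, Irf5 and Irf8, of 6 measured) were negative with Klf1. Irf1, the factor that drives immunoproteasome genes after interferon gamma, fell by 0.32 (adjusted p = 3.25e-07), and Sting1, the adaptor for cytosolic DNA, by 0.28 (adjusted p = 1.01e-09). With H2-Aa 15 were positive and 6 negative, where 11.7% and 16.1% of all genes were, so the negative share was near that of all genes. Among the positive, Irf8 rose by 0.48 (adjusted p = 1.51e-06) and Nlrc5, the MHC class I transactivator, by 0.37 (adjusted p = 6.92e-05).

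Some genes outside the set followed the member mean across the 47 arrays. Ddx58 had the highest correlation of all 18141 other genes (r = 0.93). It was followed by Parp12 (0.92), Ifitm3 (0.91), Irgm1 (0.91), Gm9706 (0.90), Trim12c (0.89), Helz2 (0.89), Phf11d (0.88), Ddx60 (0.87), Igtp (0.87), Gm20559 (0.86) and Trafd1 (0.84). In all, 39 of these genes were above 0.7, and the median gene stood at -0.039. Ifitm3, which blocks virus entry at membranes, ran from 6.61 through 8.29 to 10.41 in log2 signal. Of the 42 pathway genes, Ddx58 and Samhd1 (0.75) were above 0.7. Tapbp stood at 0.67, B2m at 0.64, H2-K1 and H2-D1 at 0.58 and Adar at 0.55. Irf1 stood at 0.06 and Irf8 at 0.02. The lowest correlations were those of Eif4b (-0.62), Pim3 (-0.62), Hint1 (-0.61), U2af2 (-0.61), Rps25 (-0.60) and Agap2 (-0.59).

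No member passed for the Erg label, line or age. The sex label served only as a covariate. For the Erg insertion label, with line and sex as covariates, 0 members and 0% of all genes passed with limma, and 0 members had an unadjusted p under 0.05. Ifit1 ran from 5.20 through 6.40 to 9.38 over the 26 insertion-labelled arrays and from 5.38 through 5.97 to 9.43 in the 21 without, so the groups overlapped over almost their whole range. The fitted difference was 0.22 (SE 0.370, adjusted p = 0.999). Irf7 ran from 5.70 through 6.25 to 7.99 with and from 5.74 through 6.32 to 7.69 without, a difference of 0.00042 (SE 0.183). The median difference over the members was -0.0056, and 18 of 37 were above 0, as were 52.6% of all genes. With age as a further covariate 9 were above 0 and the median was -0.08, and in line 6113 alone 27 were and the median was 0.085, with 0 members past the threshold in each.

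For line 6113 against line 6070, 0 members and 0% of all genes passed, with 0 members at an unadjusted p under 0.05. The median difference was 0.06 and 31 of 37 members were higher in line 6113, where 45.4% of all genes were. Psmb8 differed by 0.47 (SE 0.316, adjusted p = 0.999) and Trim30a by 0.38 (SE 0.202, adjusted p = 0.999). Age gave 0 members and 0% of genes, again with 0 members at an unadjusted p under 0.05. The member slopes had a median of 0.0056 per unit of the age label, and 36 of 37 were above 0, where 41.4% of all genes were. The test of whether the Erg difference itself varied by line also gave 0 members and 0% of genes, and 0 members at an unadjusted p under 0.05. The members are correlated with each other, so many small differences of the same sign are not independent of one another. For the Erg label the fit was also run on only the 23 arrays with a sex label that their Xist level matched. It gave 0 members, a median difference of -0.035 and 13 of 37 members above 0. No such fit was run for line or age. A matching sex label does not show that the Erg label of that array is right, so this fit cannot check the Erg comparison. If labels are attached to the wrong arrays, the absence of calls for Erg, line and age says little about the mice.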

How the data were processed

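Each of 47 leukaemic spleens was hybridised to an Affymetrix mouse expression array of its own, after a labelling that starts at the 3′ end, per the labels' protocols. The deposited values are log2 expression that the authors made with RMA (affy, R 2.15), per the submitters' processing notes. Of 45101 probe sets, 34945 named 1 gene in the platform annotation, 932 named several, 9160 were unnamed and 64 were controls. The brightest single-gene probe set over all arrays was kept, which gave 18193 genes, and 18178 were above log2 5 in at least 9 arrays. Levels of a gene are compared between arrays, not between genes.

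Tests used limma 3.58.1 in R 4.3.3 (lmFit, eBayes, two-sided) over all tested genes with Benjamini-Hochberg adjustment at 0.05. Covariates were line and sex for the Erg label, the Erg label and sex for line, and these 3 labels for age and the interaction. The marker fits used no labels. The Pf4 fit was also run on shuffled arrays in which randomly picked brighter genes were given known slopes. That run did not cover members near the floor, and its outcome is not given here. Each mouse is a separate animal, and the number of arrays limits the precision. Promoter windows are RefSeq's, build GRCm38.p6.

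The members, sub-lists, pathway genes and tests were chosen with earlier results of these data known. The rule for names allowed every member, pathway gene and marker, and the 12 genes most like and 6 least like the member mean. Alternatives were other covariates, probe sets, filters, centring, ranks, subsets of arrays and other markers.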

Additional observations from a re-analysis of the deposited data

How the results depend on the processing

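For the labels (Erg, line, age and their interaction), 0 members passed in every alternative run. The median pairwise correlation of the members stayed between 0.59 and 0.69 under the 6 alternatives, including residuals after all markers (0.68). The model with all 11 markers together changed most marker counts: 1 member for Klf1, 1 for Cd79b, 1 for Cd3d, and 0 for Csf1r, S100a8, H2-Aa and Mki67. For each of these markers the model also called fewer of all genes than the single fit. Of the 38 named slopes, 5 turned sign in that model, none past the threshold. They were Isg20 with Csf1r (0.14) and with Mki67 (-0.38), and Gbp3 (-0.036), Oasl1 (0.026) and Ifih1 (0.037) with H2-Aa. More slopes turned sign over all 37 members. Those above 0 went from 9 in the single fit to 24 for H2-Aa, from 9 to 20 for Cd3d and from 26 to 15 for Mki67. For Pf4 the count was 7 in line 6070 alone, 0 in line 6113 alone, 8 with Ppbp and 5 with Gp1bb as the marker, and 15 to 29 when 1 array was left out. For Klf1 it was 5 in line 6070 alone, where 2129 of 18177 genes passed with a positive and 1579 with a negative slope. It was 14 to 20 for Klf1 when 1 array was left out. With the 3′ minus 5′ difference as a covariate S100a8 gave 8 and Siglech 1, and adjustment over all marker fits gave Siglech 1. Cd3d gave 1 without the 2 arrays farthest from its median, and Cd3d and Mki67 gave 2 each on ranks. The cause of these changes was not tested. The single lines also hold fewer arrays than the whole series. Of 393 alternatives for 38 named slopes, 339 kept direction and call and 49 lost the call without a change of sign, 27 of them in the joint model. The alternatives within lines, with other megakaryocyte and erythroid markers, by tumour identifier and with arrays left out were chosen after seeing the data. No paired analysis was possible because the numbers in the titles only name mice, and no label ties a mouse of one group to a mouse of another. Dim members limit the reading: Mx1, Mx2 and Stat2 stayed below 6 on all arrays.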

Other observations

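Isg15, the ubiquitin-like protein that Usp18 removes from its targets, could be read only on a probe set that also names Gm9706, so its signal cannot be given to either gene. That probe set ran from 5.52 through a median of 7.40 to 9.94 in log2 signal, was above 7 in 35 arrays and was highest in Female 18. Over the 47 arrays it correlated with the member mean at 0.87 and with the single-gene probe set of Gm9706 at 0.94. Fcgr1, the high-affinity IgG receptor gene listed among the macrophage markers, correlated with the member mean at 0.74, whereas Csf1r stood at -0.16 and Adgre1 at -0.12. Fcgr1 stayed between 5.15 and 5.95.

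A second probe set checked the levels of some members. In all, 16 members had more than 1 single-gene probe set, with 24 besides the ones used. Of these 24, 13 stayed below 6 on every array, and of the 11 that reached 6, 10 correlated above 0.7 with the probe set used. The exception was a probe set of Xaf1 that reached 7.62 and correlated at 0.074 with the one used. Both other probe sets of Rsad2 followed it, at 0.99 and 0.89, and that of Gbp2 at 0.99.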
